A study of Mus musculus with 10 samples.

Results

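The transcription factors that give gut epithelium its intestinal identity were followed in mouse colon organoids: the caudal homeobox genes Cdx1 and Cdx2, the GATA factor genes Gata4 and Gata6, the nuclear receptor genes Hnf4a and Hnf4g, and the intestine-specific homeobox gene Isx. The 7 genes were taken by symbol from a table of 56748 genes, each symbol stood on 1 protein-coding row, and 6 of the 7 passed a filter of a mean of at least 0.5 FPKM (a fragment count divided by gene length and a library factor) over all libraries. Gata4 did not. Organoids are cultures of epithelial cells grown without the rest of the gut wall. They received WY-14643 at 100 µM for 2 days (5 libraries, replicates 6 to 10) or vehicle for the same time (5 libraries, replicates 1 to 5), and treatment began 3 days after passaging. The compound activates PPARα, a fatty acid-sensing member of the nuclear receptors. The labels name no strain, animal, age or organoid line, and no group lacked the receptor, so a difference cannot be assigned to it. The series is about the regional identity of the colon, and the comparison here asks whether the agonist moved the genes that set intestinal identity.

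CDX1 and CDX2 are homeodomain proteins made along the intestine from the duodenum to the colon. Without CDX2 the mouse intestine takes on features of stomach or oesophagus. GATA4 is made in the upper small intestine, where it keeps jejunal genes on and ileal genes off, whereas GATA6 is also made in ileum and colon. HNF4α and HNF4γ bind DNA as dimers, occupy many of the same enhancers of differentiated enterocytes and can stand in for each other in the mouse gut. They bind DR1 elements, direct repeats of AGGTCA spaced by 1 base, which are also the sites of PPARα with its partner RXR. ISX is a gut homeodomain protein that is induced by retinoic acid and represses Bco1, the enzyme that splits β-carotene, and Scarb1, a receptor that takes up carotenoids and lipids.

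The libraries held 15618244 to 29271304 reads assigned to genes, recovered from the FPKM values, with 0.792% to 2.58% on mitochondrial genes. The labels do not say whether libraries of a group came from separate animals or cultures, so intervals and p-values cover only library-to-library spread, part of which may be technical. Epithelial markers summed to 3765 to 7438 FPKM in WY-14643 libraries and 4056 to 6998 FPKM in vehicle libraries. Markers of other cells were close to absent: the 6 fibroblast markers summed to 0.0351 to 0.214 and 0.0356 to 0.185 FPKM in WY-14643 and vehicle libraries with Dcn and Lum at 0, and the 4 endothelial markers to 0.0134 to 0.607 and 0.0307 to 0.777 FPKM in WY-14643 and vehicle libraries. The 7 immune markers summed to 3.10 to 6.64 and 3.19 to 5.82 FPKM in WY-14643 and vehicle libraries, most of it Cd68, a lysosomal protein gene, with Cd3e and Lyz2 among those at 0, and the 7 muscle and neural markers to 0.181 to 0.577 and 0.372 to 0.492 FPKM in WY-14643 and vehicle libraries. Among genes of the colon, Car1 was present, whereas Car4, Hoxa13, Hoxb13 and Hoxd13 were at 0 in all 10 libraries. Replicate numbers are not shared between the groups, but deviations from the group means showed the libraries to go together in numerical order, WY-14643 replicate 6 with vehicle replicate 1 and so on to 10 with 5 (correlations across genes of 0.423 to 0.782, and at most 0.0602 for unmatched libraries). These are called matched pairs below. They come from the data, not from a label.

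None of the 6 tested factors passed the planned test of WY-14643 against vehicle. In limma without pairs on log2(FPKM + 1), 0 of 6 passed an adjusted p of 0.05, as did 0% of all 13607 genes tested in either direction, and 0 of 6 had an unadjusted p under 0.05, against 1.01% of all genes with a higher and 0.492% with a lower value. All 6 had a higher mean in WY-14643 libraries, which 47.1% of all genes tested had, with log2 fold changes of 0.07 to 0.21 and a median of 0.19, beside -0.0061 for all genes tested. In every one of the 6 the groups overlapped, and 0.243% and 0.11% of all genes did not overlap on the higher and lower side. Voom on the recovered reads without pairs likewise called 0 of 6, and 0 of 6 had an unadjusted p under 0.05, against 0.897% of all genes higher and 0.367% lower. With library weights 0 of 6 were called, against 0.132% higher and 0.022% lower, and 0 of 6 had an unadjusted p under 0.05, against 3.21% and 2.61%. The range of the matched pair means on log2(FPKM + 1) was wider than the log2 fold change for all but Gata6. A range of pair means and a difference of group means are unlike measures, and the pairs were read from these same libraries.

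**Figure D1:**
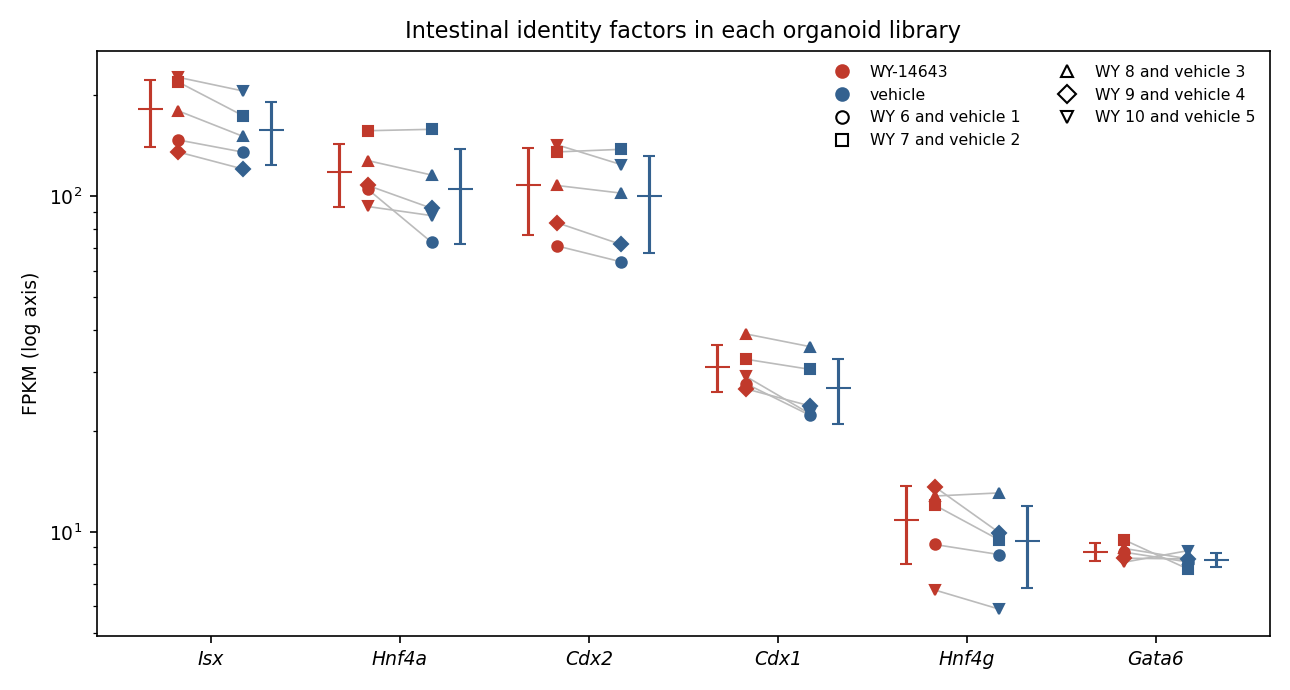
FPKM on a log axis for 6 factors. Each symbol is 1 library, WY-14643 in red left of vehicle in blue, symbols of 1 shape joined by a grey line are a matched pair, and the outer bars are the mean and SD of 5 libraries. The groups overlap for every gene; Gata4, at 0 in 8 of 10 libraries, is not drawn.

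The levels of the factors fell into an order that most libraries shared. Isx stood highest, at 169.7 ± 37.6 FPKM (mean ± SD, n = 10 libraries), followed by Hnf4a at 111.9 ± 28.7, Cdx2 at 104.2 ± 30.3, Cdx1 at 29.0 ± 5.59, Hnf4g at 10.1 ± 2.69 and Gata6 at 8.49 ± 0.495 FPKM, with Gata4 at 0.00595 ± 0.0153 FPKM. Isx lay above every other factor in all 10 libraries. Hnf4a and Cdx2 did not differ beyond their spread, nor did Hnf4g and Gata6: both orders were turned round in WY-14643 replicate 10 and its matched vehicle replicate 5, and held in the other 8 libraries. Among 1522 protein-coding genes to which the table gives a transcription factor family, Isx ranked 3 by mean FPKM, behind only Ybx1 and Ybx3 of the cold-shock family, Hnf4a ranked 8, Cdx2 9, Cdx1 57, Hnf4g 228 and Gata6 283. Isx and Cdx2 were ranked 1 and 2 of 225 homeobox genes.

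Cdx2, the caudal factor that all regions of the intestinal epithelium need, lies on chromosome 5 from 147237615 to 147244080 (ENSMUSG00000029646, minus strand; mm39, as for all gene spans given). Its values were 71.3, 135.8, 107.9, 83.6 and 142.7 FPKM in WY-14643 replicates 6 to 10, against 63.9, 138.2, 102.3, 72.0 and 124.5 FPKM in vehicle replicates 1 to 5. Replicates 7 and 10 and their partners 2 and 5 were the high ones, replicates 6 and 9 with 1 and 4 the low ones, and the groups covered nearly the same range. The means were 108.2 ± 31.3 FPKM in WY-14643 and 100.2 ± 32.2 FPKM in vehicle libraries (SD, n = 5 each), a log2 fold change of 0.12 ± 0.26 (SE; 95% interval -0.45 to 0.70; limma, adjusted p = 1.0). Without pairs these data leave room for anything from 0.731-fold to 1.62-fold, and without vehicle replicate 1 the log2 fold change was -0.022.

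Cdx1, which is concentrated in the crypts and the colon, lies on chromosome 18 from 61151934 to 61169271 (ENSMUSG00000024619, minus strand). It was at 27.7, 32.7, 38.9, 26.7 and 29.1 FPKM in WY-14643 replicates 6 to 10 and at 22.3, 30.5, 35.7, 23.7 and 22.5 FPKM in vehicle replicates 1 to 5. Each WY-14643 library stood above its matched vehicle library, while vehicle replicates 2 and 3 stood above 3 and 4 of the WY-14643 libraries. The means were 31.0 ± 4.97 and 26.9 ± 5.94 FPKM in WY-14643 and vehicle (SD, n = 5 each), a log2 fold change of 0.21 ± 0.15 (SE; 95% interval -0.13 to 0.55; limma, adjusted p = 1.0). The ratio of Cdx1 to Cdx2 was 0.303 ± 0.0784 in WY-14643 and 0.286 ± 0.0792 in vehicle libraries. It was lowest in the matched replicates 10 and 5, at 0.204 in WY-14643 and 0.181 in vehicle, where Cdx2 was high and Cdx1 was not. The third caudal gene, Cdx4, which acts in the early embryo, was at 0 in all libraries.

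Isx lies on chromosome 8 from 75599801 to 75620134 (ENSMUSG00000031621, plus strand). Its values were 147.3, 219.2, 179.9, 135.6 and 226.5 FPKM in WY-14643 replicates 6 to 10, against 135.6, 174.3, 151.2, 120.8 and 206.4 FPKM in vehicle replicates 1 to 5. Each WY-14643 library was above its matched partner, by 1.09 to 1.26 times, but the span of the pairs was wider than that step, so the groups overlapped. The means were 181.7 ± 41 FPKM in WY-14643 and 157.6 ± 33.7 FPKM in vehicle libraries (SD, n = 5 each), a log2 fold change of 0.20 ± 0.19 (SE; 95% interval -0.21 to 0.61; limma, adjusted p = 1.0).

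Isx and Cdx2 followed each other across libraries. They were high and low in the same pairs, with a Pearson correlation of 0.887 over the 10 libraries, given as a description since matched libraries are not independent. Isx stood at 1.59 to 2.07 times the Cdx2 level in WY-14643 libraries and 1.26 to 2.12 times in vehicle libraries, and the highest ratio of each group was in the matched replicates 6 and 1. Next came Cdx1 with Hnf4a at 0.742, and the lowest of the 15 correlations between factors was that of Hnf4g with Isx, at -0.377. The genes Mettl27, Tmco6 and Rhot2 followed Cdx2 more closely than Isx did, at 0.984 to 0.985. How many of all genes reached 0.887 was not counted, so the value is not particular to Isx.

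Promoter windows were read for Cdx2, for Isx and for both starts listed for Hnf4a, whose expression is summed over starts. They show what short sites lie next to these starts. The windows are from RefSeq (GRCm38.p6) and run from 250 bases before to 50 bases after the start on the gene's strand. They were read for 3 of the 7 genes. None was read for Cdx1, Gata4, Gata6 or Hnf4g, which does not show that the source lacks them. Capitals mark matches, on either strand, to short letter runs, from sites of CDX, GATA and HNF4 proteins and 1 other. CDX proteins were represented by TTTAT and by its variant with the last letter changed, TTTAC. The GATA factors were represented by their common site AGATAA. The letters GTTAAT were searched as well, and are not a site taken from any of the 7 factors. HNF4 was represented by CAAAGTCCA and by the DR1 element described above. No marked matches overlap.
Cdx2, chr5:147307200-147307499, minus strand: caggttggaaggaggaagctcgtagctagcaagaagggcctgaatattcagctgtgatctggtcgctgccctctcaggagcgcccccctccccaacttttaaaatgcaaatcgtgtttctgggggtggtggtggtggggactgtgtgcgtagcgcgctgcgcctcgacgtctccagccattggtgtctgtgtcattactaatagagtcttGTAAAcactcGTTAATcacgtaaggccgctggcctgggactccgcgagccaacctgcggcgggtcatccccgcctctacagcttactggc
Isx, chr8:74872924-74873223, plus strand: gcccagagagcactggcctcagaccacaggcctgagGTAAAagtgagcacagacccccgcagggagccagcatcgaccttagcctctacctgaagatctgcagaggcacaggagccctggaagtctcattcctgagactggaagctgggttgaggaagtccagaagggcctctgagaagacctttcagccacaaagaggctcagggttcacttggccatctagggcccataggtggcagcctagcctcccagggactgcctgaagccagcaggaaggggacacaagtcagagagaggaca
Hnf4a, upstream start, chr2:163506607-163506906, plus strand: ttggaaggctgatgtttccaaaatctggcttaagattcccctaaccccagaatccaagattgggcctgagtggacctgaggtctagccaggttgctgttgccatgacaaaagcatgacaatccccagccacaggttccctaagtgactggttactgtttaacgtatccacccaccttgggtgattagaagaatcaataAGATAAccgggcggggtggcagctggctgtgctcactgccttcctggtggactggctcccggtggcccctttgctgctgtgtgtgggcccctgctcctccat
Hnf4a, downstream start, chr2:163546905-163547204, plus strand: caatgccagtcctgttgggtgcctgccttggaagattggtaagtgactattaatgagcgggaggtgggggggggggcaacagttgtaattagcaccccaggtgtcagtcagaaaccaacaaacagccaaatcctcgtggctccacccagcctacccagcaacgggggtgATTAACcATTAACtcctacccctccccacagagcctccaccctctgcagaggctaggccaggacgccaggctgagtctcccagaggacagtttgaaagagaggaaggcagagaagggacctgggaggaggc

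Cdx2 and Isx each held 1 TTTAC match, read as GTAAA on the printed strand, beginning at positions -40 and -214 relative to the start. Of all 32851 windows of this length 31.5% hold TTTAC and 40.01% hold TTTAT, which neither has. Cdx2 also held GTTAAT at position -30. The upstream Hnf4a window held 1 AGATAA, which 11.2% of all windows have, and the downstream one, whose window begins 40298 bases further along, held GTTAAT 2 times, as ATTAAC, which 7.10% of windows have at least once. None of the 4 windows held CAAAGTCCA or the DR1 element, found in 0.475% and 0.0396% of all windows. The motifs were chosen after these windows had been read, so the shares of all windows are no test of the matches. These matches are a description of the letters, and sites elsewhere in the genes were not examined.

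Hnf4a, the more abundant HNF4 receptor, lies on chromosome 2 from 163348728 to 163414830 (ENSMUSG00000017950, plus strand). Its values were 105.2, 157.0, 128.0, 107.9 and 93.4 FPKM in WY-14643 replicates 6 to 10, against 72.9, 158.6, 115.8, 92.2 and 87.7 FPKM in vehicle replicates 1 to 5. Replicates 7 and 2 were the high ones and nearly equal, and replicate 6 stood 1.44 times above replicate 1, the widest step of any pair. The means were 118.3 ± 25.0 and 105.4 ± 33.5 FPKM in WY-14643 and vehicle (SD, n = 5 each), a log2 fold change of 0.19 ± 0.21 (SE; 95% interval -0.27 to 0.66; limma, adjusted p = 1.0). The antisense gene Hnf4aos overlaps 34914 bases of it on the other strand but averaged only 0.0629 and 0.0926 FPKM in WY-14643 and vehicle libraries.

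Hnf4g, its close relative, lies on chromosome 3 from 3573084 to 3724860 (ENSMUSG00000017688, plus strand). It was at 9.17, 12.02, 12.8, 13.6 and 6.71 FPKM in WY-14643 replicates 6 to 10, against 8.56, 9.47, 13.1, 9.96 and 5.89 FPKM in vehicle replicates 1 to 5. The lowest library of each group was the matched replicate 10 or 5. The means were 10.9 ± 2.86 and 9.39 ± 2.59 FPKM in WY-14643 and vehicle (SD, n = 5 each), a log2 fold change of 0.19 ± 0.22 (SE; 95% interval -0.29 to 0.67; limma, adjusted p = 1.0). Per length, Hnf4g stood at 0.0924 ± 0.0218 of the Hnf4a level in WY-14643 libraries and at 0.0930 ± 0.0273 in vehicle libraries, so the balance of the receptors overlapped between the groups.

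Gata6, the GATA factor of the lower gut, had the smallest coefficient of variation of the 7. It lies on chromosome 18 from 11052064 to 11085635 (ENSMUSG00000005836, plus strand). It was at 8.70, 9.48, 8.93, 8.35 and 8.12 FPKM in WY-14643 replicates 6 to 10, against 8.13, 7.75, 8.31, 8.30 and 8.79 FPKM in vehicle replicates 1 to 5. The means were 8.71 ± 0.529 and 8.26 ± 0.377 FPKM in WY-14643 and vehicle (SD, n = 5 each), a log2 fold change of 0.07 ± 0.07 (SE; 95% interval -0.09 to 0.23; limma, adjusted p = 1.0), so without pairs these data leave room for 0.940-fold to 1.17-fold. Over all 10 libraries its coefficient of variation was 5.84%, and 1.71% of the 817 tested transcription factor genes had a smaller one, whereas their median was 16.9% and Cdx2 had 29.0%. Its antisense neighbour Gata6os, which shares 873 bases with it, was at 1.06 ± 0.203 and 1.09 ± 0.334 FPKM in WY-14643 and vehicle, and where strand was not used in counting, reads of the shared bases cannot be told apart.

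Gata4, the factor of the upper small intestine, lies on chromosome 14 from 63436371 to 63509141 (ENSMUSG00000021944, minus strand) and was all but absent. It had 3 reads in WY-14643 replicate 6, 1 read in replicate 10 and 0 in the other 8 libraries, 4 reads in all against 10683 for Gata6. The 3 reads equal 0.0484 FPKM, and a count of 0 allows up to 0.0265 to 0.0487 FPKM depending on the depth of the library. No library was above the limit of 3 reads, and no fold is given. The other GATA genes were low as well: Gata3 averaged 0.453 ± 0.352 and 0.370 ± 0.292 FPKM in WY-14643 and vehicle, Gata5, the third GATA gene of the gut, 0.0390 and 0.0340 FPKM, Gata2 0.0317 and 0.0216 FPKM, and Gata1 was at 0. In bulk RNA, fewer cells of a type and less RNA per cell cannot be told apart, for these and for all values given.

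**Figure D2:**
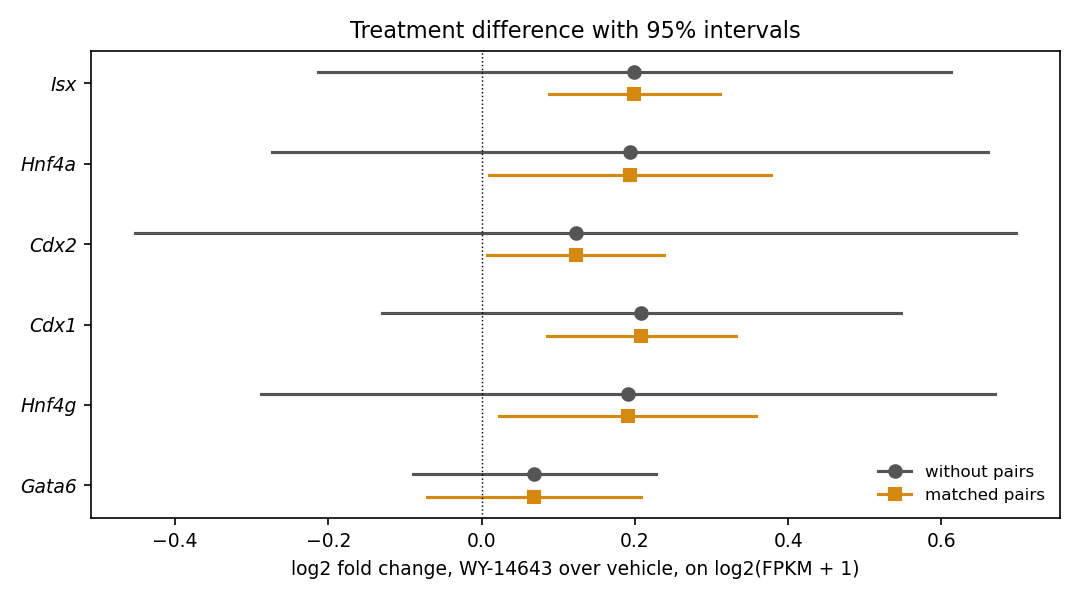
Log2 fold changes of WY-14643 over vehicle on log2(FPKM + 1) with 95% intervals, from limma without pairs (grey) and with matched pairs (orange). The values are the same in both, 0.07 to 0.21. All 6 intervals without pairs include 0, and with matched pairs only that of Gata6 does. The pairs were read from these same libraries.

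Within matched pairs the difference was small and mostly of one sign. Isx and Cdx1 were higher with WY-14643 in 5 of 5 pairs, which 5.63% of all genes tested were (6.09% were lower in 5 of 5), and all 6 factors in at least 4 of 5, against 21.4% of all genes. The exceptions were Cdx2 and Hnf4a in replicates 7 and 2, Hnf4g in replicates 8 and 3, and Gata6 in replicates 10 and 5. In limma with the pairs as a block, 0 of 6 passed an adjusted p of 0.05, against 0.287% of all genes on the higher and 0.0294% on the lower side. There 5 of 6, all but Gata6, had an unadjusted p under 0.05 with a higher value, against 5.48% of all genes with a higher and 5.09% with a lower value. The adjusted p was 0.182 for Isx, with a matched SE of 0.05 and an interval of 1.06-fold to 1.24-fold, 0.205 for Cdx1, with an interval of 1.06-fold to 1.26-fold, 0.401 for Hnf4g, 0.434 for Cdx2, 0.442 for Hnf4a and 0.746 for Gata6. Genes vary together and the factors were chosen with earlier results of these data known, so the shares are not tested against each other. All matched SEs, intervals and p-values measure only the spread of differences within pairs. They also depend on a pairing that was read from these same libraries. Voom on the recovered reads with the same pairs gave Isx a log2 fold change of 0.21 ± 0.05 (SE) and an adjusted p of 0.0458, and called 1.4% of all genes higher and 0.36% lower. There too 5 of 6 had an unadjusted p under 0.05 with a higher value, against 6.44% of all genes higher and 4.9% lower. The Isx call was lost without replicates 7 and 2 (adjusted p = 0.145), 8 and 3 (0.261), 9 and 4 (0.130) or 10 and 5 (0.0896), and not without 6 and 1 (0.0175).

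Differences between pairs took up most of the spread of all tested factors but Gata6. After group means were removed, 98.8% of the spread of Cdx2 on the log2(FPKM + 1) scale lay between matched pairs, 98.0% for Isx, 95.01% for Cdx1, 94.5% for Hnf4g and 92.2% for Hnf4a, beside a median of 88.4% over all genes tested and 6.79% for Gata6. The pairs had been matched on these same libraries. Pair means spanned 1.01 log2 units for Cdx2, 0.93 for Hnf4g, 0.84 for Hnf4a, 0.75 for Isx, 0.57 for Cdx1 and 0.04 for Gata6. The low share and narrow span of Gata6 do not show partners that were alike, because opposite deviations cancel in a pair mean. WY-14643 replicate 7 was the highest of its group, at 9.48 FPKM, and its partner replicate 2 the lowest vehicle library, at 7.75 FPKM. Replicate 10 was the lowest of its group, at 8.12 FPKM, and its partner replicate 5 the highest vehicle library, at 8.79 FPKM. The factors did not move as a block: in replicates 10 and 5 Cdx2 and Isx were high, Hnf4a was low and Hnf4g was the lowest of all pairs. The ratio of Hnf4a to Cdx2 there was 0.654 in WY-14643 replicate 10 and 0.704 in vehicle replicate 5, against 1.13 to 1.48 in the other 8 libraries.

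**Figure D3:**
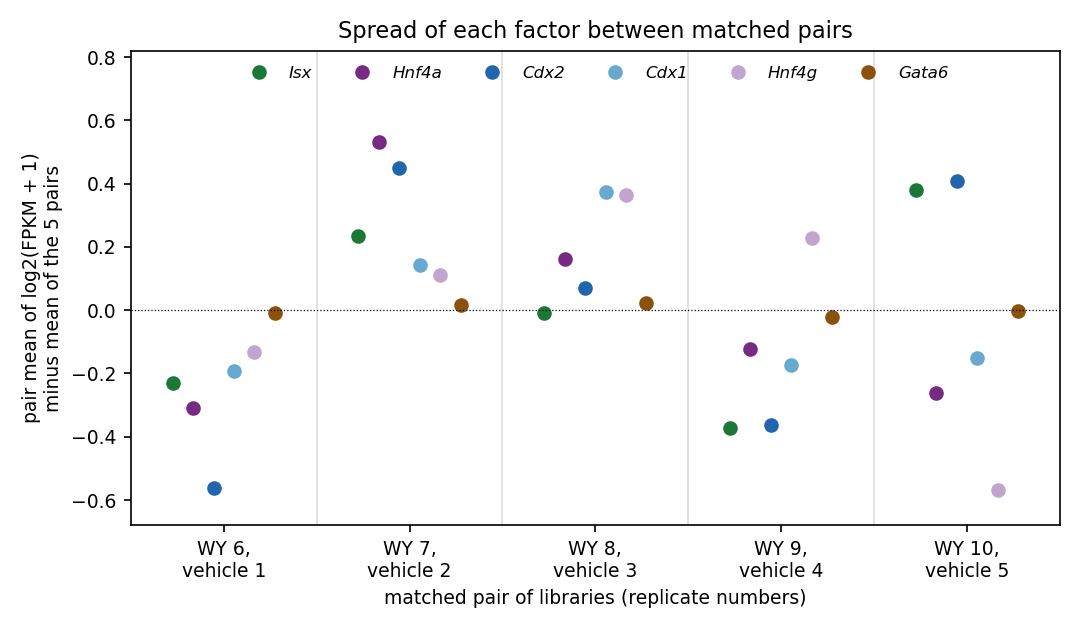
Mean of each matched pair on log2(FPKM + 1), less the mean over the 5 pairs, for 6 factors; each point is 1 gene in 1 pair. Cdx2 and Isx lie together at the top in the last pair while Hnf4g lies lowest, and Gata6 stays within 0.04 across pairs. For Gata6, opposite deviations of partners cancel in these means.

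The genes whose levels followed each factor most closely over the 10 libraries were looked up among tested protein-coding genes, as a description. Cdx2 was followed by Mettl27 (Pearson correlation 0.985), Tmco6 (0.984) and Rhot2 (0.984), and Isx by Tmem126b (0.979), Miga2 (0.969) and Reps2 (0.965). Hnf4a was followed by Tmem98 (0.984), at 85.6 and 75.3 FPKM in WY-14643 and vehicle libraries, Phldb1 (0.972) and Mtus1 (0.971). For Hnf4g they were Mynn (0.952), Pqlc3 (0.947) and Poc1b (0.935), and for Cdx1 Rab3d (0.905), Acss1 (0.905) and 4930430F08Rik (0.892). Gata6, with little spread to follow, reached 0.770 with Rad51d, 0.749 with Osgep and 0.717 with Alg12. Matched libraries share their deviations, so the 10 points are not independent.

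Limma called none of the other listed transcription factors of gut epithelium. For this list and those below, calls were counted in limma with and without pairs only, and not in voom. Of 23, 20 were tested, 0 were called higher or lower with or without pairs, and their median log2 fold change was 0.02. The smallest p belonged to Esrra, an orphan receptor of energy metabolism genes, at 24.9 ± 2.79 and 23.5 ± 2.93 FPKM in WY-14643 and vehicle (SD, n = 5 each), then to Grhl2, a factor of epithelial junction genes, at 9.56 ± 1.02 and 10.1 ± 1.19 FPKM, the Notch target Hes1 at 30.2 ± 5.02 and 32.3 ± 5.32 FPKM, and the Wnt effector Tcf7l2 at 5.19 ± 1.05 and 4.80 ± 1.08 FPKM. Tcf7l2 was higher with WY-14643 in 5 of 5 matched pairs (limma with pairs, adjusted p = 0.520). Atoh1, Creb3l3 and Foxa2 were below the filter. Across all 817 tested transcription factor genes the median log2 fold change was -0.0036 and 0 were called without pairs, and the matched fit called 2 higher and 0 lower.

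Brush border genes, many of them bound by CDX2 and HNF4 factors in enterocytes, gave no call in either fit: 12 of 19 were tested, with a median log2 fold change of 0.03. Cdh17, an intestinal cadherin and CDX2 target, was at 205 ± 56.2 and 205 ± 63.1 FPKM in WY-14643 and vehicle, and Vil1, the actin bundler villin, at 158 ± 5.78 and 156 ± 15.2 FPKM. The 4 with the smallest p were Mep1b, a meprin subunit, at 11.3 ± 5.38 and 8.87 ± 5.13 FPKM in WY-14643 and vehicle, the protocadherin Cdhr5 at 62.5 ± 18.6 and 54.6 ± 20.5 FPKM, the motor Myo1a at 21.1 ± 10.6 and 17.1 ± 10.05 FPKM, and the surface antigen Gpa33 at 151 ± 30.1 and 144 ± 29.3 FPKM. Cdhr5 was higher with WY-14643 in 5 of 5 matched pairs (limma with pairs, adjusted p = 0.309). Sis and Lct, the sugar-splitting enzymes of the small intestine, were below 0.1 FPKM on average, and Dpp4 was at 0.

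Vitamin A genes were examined because of Isx. Of 15, 9 were tested and 0 were called in either fit, with a median log2 fold change of 0.13. Rbp2, among the 9, passed the filter only through its WY-14643 libraries, so nothing is read from that median. Bco1, which ISX represses in mouse, was below the filter at 0.335 ± 0.0683 and 0.285 ± 0.0633 FPKM in WY-14643 and vehicle, and Scarb1 was at 3.95 ± 0.564 and 3.90 ± 0.344 FPKM. Aldh1a1, which makes retinoic acid, had the smallest p of the list, at 45.5 ± 6.70 FPKM in WY-14643 libraries, against 22.2 ± 10.5 FPKM in vehicle libraries (log2 fold change 1.13, unadjusted p = 0.00414; limma, adjusted p = 1.0 without pairs and 0.113 with them). It was higher in 5 of 5 pairs, but its ranges, 33.7 to 50.2 FPKM in WY-14643 and 9.03 to 35.6 FPKM in vehicle, overlapped. Dgat1, an esterifying enzyme, was at 6.92 ± 0.421 and 6.29 ± 1.07 FPKM in WY-14643 and vehicle, the receptor gene Rarg at 10.9 ± 0.970 and 11.7 ± 1.15 FPKM, and Rbp2, the retinol carrier of enterocytes, at 0.823 ± 1.04 and 0.378 ± 0.407 FPKM. Rarg was lower with WY-14643 in 5 of 5 matched pairs (limma with pairs, adjusted p = 0.485).

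**Figure D4:**
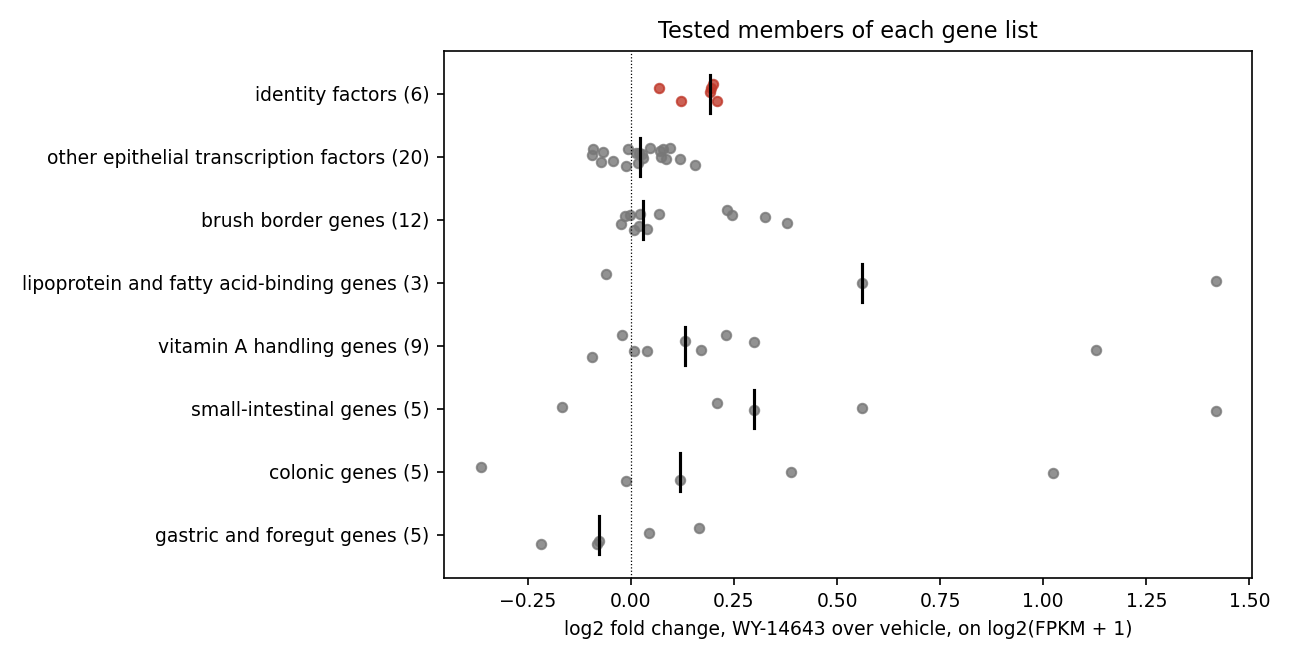
Log2 fold change of WY-14643 over vehicle for the tested members of each gene list (number in brackets), 1 point per gene, with the median as a black bar; the identity factors are in red. The 6 identity factors lie between 0.07 and 0.21, and no point in any list passed an adjusted p of 0.05 in limma, with or without pairs. The lists share members, and Fabp1 and Rbp2 passed the filter only through their WY-14643 libraries.

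Regional genes gave no call in limma either, with or without pairs. Of 11 small-intestinal genes 5 were tested, and Apoc3 was at 0. Their median log2 fold change, 0.30, is the value of Rbp2, which like Fabp1 passed the filter only through its WY-14643 libraries, so nothing is read from it. Fabp1, a carrier of fatty acids in enterocytes and liver, ranged from 0 to 14.2 FPKM in WY-14643 libraries and from 0 to 0.0623 FPKM in vehicle libraries. It was called in neither fit, and no p-value is given because its entry into the test rested on its WY-14643 libraries. Its relative Fabp2 was at 11.8 ± 8.83 and 6.65 ± 2.32 FPKM in WY-14643 and vehicle, the glucose carrier Slc5a1 at 1.08 ± 1.05 and 0.702 ± 0.584 FPKM, and Slc10a2, the bile acid carrier of the ileum, at 3.17 ± 2.80 and 3.74 ± 3.14 FPKM. The list of 9 lipoprotein and fatty acid-binding genes had 3 tested (median 0.56, with the same limit for Fabp1): Fabp1, Fabp2 and Mttp, which loads lipoproteins, at 1.19 ± 0.377 and 1.27 ± 0.330 FPKM in WY-14643 and vehicle. Of 12 colonic genes 5 were tested (median 0.12). Car1, a carbonic anhydrase of colonocytes, ranged from 43.1 to 1626 FPKM in WY-14643 libraries and from 21.0 to 887 FPKM in vehicle libraries, Slc26a3, the chloride exchanger, was at 2.23 ± 1.12 and 1.55 ± 1.25 FPKM in WY-14643 and vehicle, and Muc2, the mucin of goblet cells, at 4.6 ± 2.42 and 6.28 ± 3.33 FPKM. Within matched pairs Muc2 was lower with WY-14643 in 5 of 5 (limma with pairs, adjusted p = 0.233) and Fabp2 higher in 5 of 5 (adjusted p = 0.315).

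Stomach and foregut genes, which appear in gut that lacks CDX2, were mostly below the filter. Of 17, 5 were tested, with a median of -0.08 and 0 called in either fit, and Sox2, Tff1, Gkn1 and Gkn2 were at 0 in all libraries. Sox21, a SOX factor gene, was an exception in level, at 16.8 ± 4.25 and 18 ± 5.91 FPKM in WY-14643 and vehicle. Pdx1, a factor of duodenum and pancreas, was at 0.640 ± 0.285 and 0.720 ± 0.208 FPKM in WY-14643 and vehicle, Vsig1 at 1.34 ± 0.706 and 1.75 ± 0.980 FPKM, and Anxa10 at 0.960 ± 1.78 and 0.597 ± 1.11 FPKM.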

How the data were processed

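Values of 10 mouse colon organoid libraries were read from 1 table. They are FPKM, made by the authors and deposited per gene and library. The submitters' processing notes name mm39 as the build, HISAT2 2.0.5 and featureCounts 1.5.0-p3; for the annotation, strand use and library factor the sources used here give nothing. The gene length in bases is another column the authors deposited. FPKM times length, divided by a library's smallest such value, was whole in 100% of values above 0 (tolerance 0.01). These recovered reads gave the depth and entered voom, scaled by the reads of tested genes. No 2 libraries held the same values.

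Genes with a mean of at least 0.5 FPKM were tested, 13607 of 56748, grouped by the treatment label. The planned comparison was limma 3.58.1 (R 4.3.3) on log2(FPKM + 1), with trended, robust eBayes, p-values adjusted by Benjamini-Hochberg over every tested gene and called at 0.05; that scale understates changes of low genes. Alternatives were the matched pairs as a block, voom, library weights, quantile and median-ratio scaling, a pseudocount of 0.1, other filters, and leaving out libraries or pairs.

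The members and lists were chosen with earlier results of these data known, and the motifs after the promoter windows had been read. Named genes are the 7 members, genes that overlap them, up to 4 of each list with the smallest p and any called, and the 3 most alike per member. Others (such as Cdh17, Vil1, Bco1, Scarb1, and genes at 0) were named after their values were seen. Some genes of the rule are left out of the text. Plots were made in Python 3.11.15 (matplotlib 3.10.9).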

Additional observations from a re-analysis of the deposited data

Results flagged for a closer look

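In 27 groups of 5 libraries (members, ratios between members, depth and read shares), the gap of an extreme library to its nearest neighbour was compared with the range. In 4 groups the gap was above 0.71 of the range. Chance alone gives about 1 in 20 for independent groups with a normal spread. The ratios share values with each other and with the members, and Gata4 had 0 to 3 reads, so the 4 cannot be set against that rate. Gata4 in WY-14643 replicate 6 was at 0.0484 FPKM, from 3 reads, with the others at 0 to 0.0111 FPKM. The ratio of Isx to Cdx2 was 2.07 in WY-14643 replicate 6, with the others of its group at 1.59 to 1.67, and its matched vehicle replicate 1 had 2.12. The ratio of Hnf4a to Cdx2 was 0.654 in WY-14643 replicate 10 and 0.704 in its matched vehicle replicate 5, which stood apart from the other vehicle libraries at 1.13 to 1.28. WY-14643 replicate 10 was also the deepest of its group, with 22209003 reads against 16136440 to 17644989; the part of depth in these ratios was not tested.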

How the results depend on the processing

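All 6 tested members kept a higher mean and an adjusted p above 0.05 in every alternative run, with 2 exceptions. Cdx2 had a log2 fold change of -0.022 without vehicle replicate 1, within -0.022 to 0.26 over the libraries left out in turn. Isx passed in voom with the replicate block at 0.21 (adjusted p = 0.0458) and at 0.23 (adjusted p = 0.0175) when replicates 6 and 1 were also left out; over its alternatives the adjusted p ran from 0.0175 to 1.0. Over single libraries left out, the log2 fold change ranged from 0.13 to 0.31 for Cdx1, 0.04 to 0.09 for Gata6, 0.08 to 0.35 for Hnf4a, 0.05 to 0.34 for Hnf4g and 0.11 to 0.30 for Isx. The count of members called higher was 1 in those 2 voom fits and 0 in the other alternatives, and 0 were called lower in any. Gata4 entered only with no filter on low values, at 0.02 (adjusted p = 1.0).

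Counts over all genes moved more. They were 0 higher and 0 lower without pairs, 0 to 2 higher and 0 lower when single libraries were left out, and 18 higher and 3 lower with library weights. With the replicate block they were 39 higher and 4 lower. Leaving out 1 pair from that fit gave 27, 3, 2, 12 and 30 higher and 6, 0, 0, 1 and 3 lower (pairs of vehicle replicates 1 to 5). With the block and voom they were 190 higher and 49 lower, and without 1 pair 257, 153, 89, 111 and 149 higher and 116, 26, 12, 28 and 30 lower; this last set was chosen after seeing the data. The cause was not tested. Differences of Gata4 were not detectable at this depth.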
